A study of Mus musculus with 8 samples.

Results

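The 25 genes described here encode GABA-A and GABA-B receptor subunits, the enzymes and transporters that make, load, clear and break down GABA, and proteins that hold or escort receptors at inhibitory synapses. They were chosen by name, with earlier results of these data known, and all 25 were found among the 57186 genes counted. The series holds RNA-seq of mouse brain from 4 control libraries and 4 libraries of an AKAP11 conditional knockout (cKO), and the comparison asks how the RNA levels of these genes and the mix of receptor subunits stand in a brain with a conditional deletion of Akap11, one limited by design to chosen cells or times. The tissue is given as "brian" and read as brain. Its region, age, sex, strain, the genotype of the controls and the driver and cell type of the recombinase are not stated in the labels. Whether the libraries of a group come from separate mice is not stated either, so p-values measure only how much these libraries vary, which may be technical.

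GABA is the main inhibitory transmitter of the adult brain. GABA-A receptors are chloride channels assembled from several subunits, usually alpha, beta and gamma or delta, and the subunits chosen set where the receptor sits and how strongly it responds. GABA-B receptors are G-protein-coupled and need both of their subunits to reach the cell surface. A-kinase anchoring proteins such as AKAP11 tether protein kinase A (PKA). PKA is known to phosphorylate some GABA-A beta subunits and the GABA-B subunit encoded by Gabbr2. These counts measure RNA, so phosphorylation, receptor protein and inhibitory currents are not measured.

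Levels are given as CPM, which are counts divided by the TMM-adjusted size of each library. Each library held 13841218 to 19991942 reads in genes. Akap11 stood at 373.1, 312.3, 314.9 and 290.6 CPM in control replicates 1 to 4 and at 220.5, 214.4, 237.2 and 240.5 CPM in cKO replicates 1 to 4. It fell by 29.3%, with an edgeR adjusted p of 0.0103 (0.0616 without control replicate 2 and 0.104 without cKO replicate 2), and the groups did not overlap. The share of listed reads that fell in genes was 63.8% for cKO replicate 1 and 73.7% to 79.7% for the remaining 7. Principal components, the main axes of variation between libraries, were taken from the log2 CPM of all genes tested. On the first, cKO replicate 1 stood at 39.1 and the other libraries from -10.5 to 0.478. On the second, control replicate 1 stood at 31.0 and the other libraries from -14.3 to 3.77. In all, 4 of 16766 genes tested passed the edgeR test, 0.0239%. In bulk RNA, fewer cells of a type and less RNA per cell cannot be told apart.

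None of the 24 GABA genes tested passed the edgeR test (0 of 24, adjusted p from 0.889 to 0.985), and Gabra6 was too low to be tested. An unadjusted edgeR p under 0.05 was reached by 1 of the 24, Gabrb2, which is 4.17% of them where all tested genes gave 4.78%. It was lower in cKO brain, as were 1.91% of all genes at that p, while 2.87% of all genes and 0 of the 24 were higher. In 0 of the 24 did the cKO libraries all lie on 1 side of the control libraries, where 2.96% of all tested genes did so. Log2 fold changes, cKO minus control, ran from -0.16 (Gabrb2) to 0.12 (Gabre), with a median of -0.03 beside a median of 0.0034 over all tested genes. Of the 24, 15 were negative (62.5%), against 48.8% of all genes tested. DESeq2 and limma voom also called 0 of these genes, each with Gabrb2 alone at an unadjusted p under 0.05.

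Standard errors (SE) of the 24 estimates had a median of 0.064 on the log2 scale. For 22 of the 24, the 95% interval lay within a 1.25-fold difference in either direction, as it did for 53.5% of all genes tested. The exceptions were Gabrq and Gabre, the GABA-A subunit genes with the lowest levels among those tested. Gabrq stayed within 1.5-fold, so that 23 of the 24 did so where 76.8% of all genes did, while the interval for Gabre ran from -0.42 to 0.67. Intervals widen at low counts, and the 24 were not matched by level to all genes, so these shares do not compare stability.

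**Figure D1:**
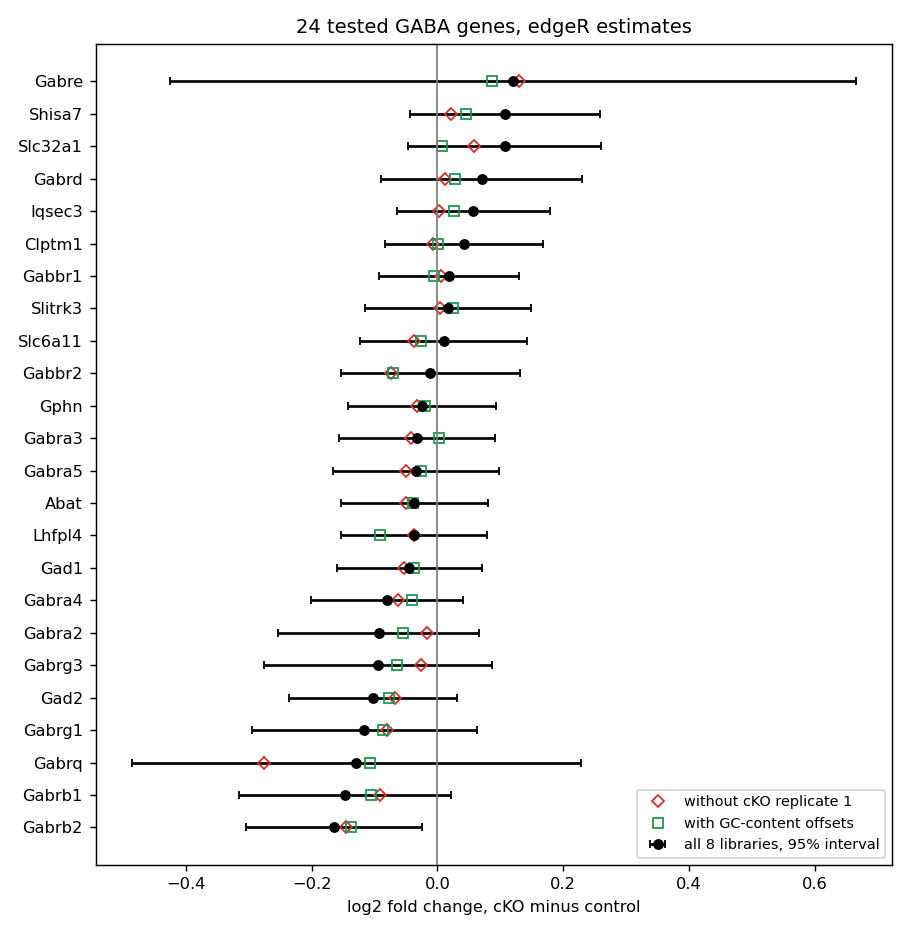
Log2 fold changes, cKO minus control (x axis), of the 24 tested GABA genes (y axis), with 95% intervals from all 8 libraries as black points and bars, estimates without cKO replicate 1 as red diamonds and estimates with GC-content offsets as green squares. The interval of Gabrb2 alone lies wholly on 1 side of 0, and its adjusted p is 0.889.

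GC-rich and GC-poor members of this group stood apart in some libraries, and the cause was not tested. In cKO replicate 1, 7 of the 24 genes had their lowest value of all 8 libraries (Gabra2, Gabra4, Gabrb1, Gabrb2, Gabrg1, Gabrg3 and Gad2) and 4 their highest (Gabrd, Shisa7, Iqsec3 and Clptm1). Control replicate 1 held the highest value for 11 of the 24 and the lowest for 0. Against GC content of the longest transcript, the log2 distance of each gene from the control mean had a Spearman rho of 0.786 in cKO replicate 1, 0.717 in cKO replicate 2, -0.08 in cKO replicate 3 and -0.17 in cKO replicate 4. Among the controls it was -0.47 in replicate 1, 0.0087 in replicate 2, -0.03 in replicate 3 and 0.443 in replicate 4. The control libraries make up the control mean, so their slopes tend to offset each other and are no reference for the cKO slopes. These values are across 24 genes that share a library and are a description. The fold changes themselves had a rho with GC content of 0.785, with 0.563 once cKO replicate 1 was left out and 0.529 under GC-content offsets fitted per library. Such offsets are set without regard to group, so they can also take up a group difference that follows GC content. Without cKO replicate 1 the median fold change of the 24 was -0.04, and with the offsets it was -0.03.

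**Figure D2:**
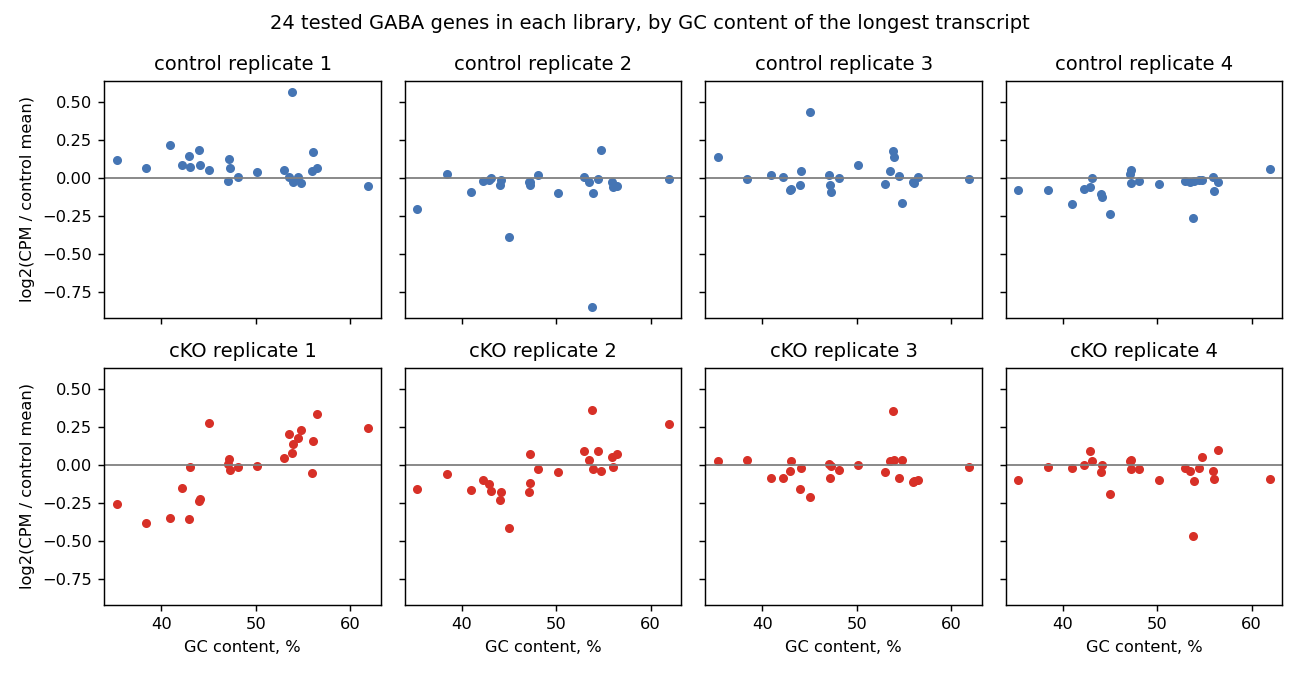
Log2 ratio of each library's CPM to the control mean (y axis) for the 24 tested GABA genes against the GC content of their longest transcript in percent (x axis), 1 panel per library, controls in blue and cKO in red. The points slope upward in cKO replicates 1 and 2 (Spearman rho 0.786 and 0.717) and in control replicate 4 (0.443), and downward in control replicate 1 (-0.47).

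Levels between genes were compared per kilobase of exon (CPM per kb, with exon lengths from GENCODE M21). Among the GABA-A subunit genes measured, Gabra3 was the highest, at 38.5 ± 1.53 CPM per kb in control and 37.7 ± 2.37 in cKO brain (SD, n = 4 per group here and below). The alpha3 subunit it encodes is prominent in monoamine neurons, the reticular thalamus and deep cortical layers. Gabrb2 came next at 30.9 ± 2.82 and 27.5 ± 1.74 CPM per kb. Gabrd, Gabra5 and Gabra4 lay together at 22.0 ± 2.21, 21.5 ± 0.396 and 21.2 ± 0.943 CPM per kb in control brain, closer to each other than the spread of Gabrd. All 3 encode subunits known for receptors outside the synapse, which respond to low ambient GABA.

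Lower levels were found for the remaining subunit genes. Gabrb1 stood at 12.5 ± 1.49 and Gabra2, whose subunit is concentrated at axon initial segments of forebrain neurons, at 9.48 to 10.5 CPM per kb in the control libraries. Gabrg1 and Gabrg3, which encode less common gamma subunits, were at 4.94 ± 0.553 and 3.44 ± 0.247. Gabrq and Gabre, which sit beside Gabra3 on the X chromosome and are known from hypothalamic and brainstem neurons, were at 1.82 ± 0.472 and 0.507 ± 0.201 CPM per kb. Other GABA-A subunit genes are not analysed here, so these values do not rank the whole family.

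**Figure D3:**
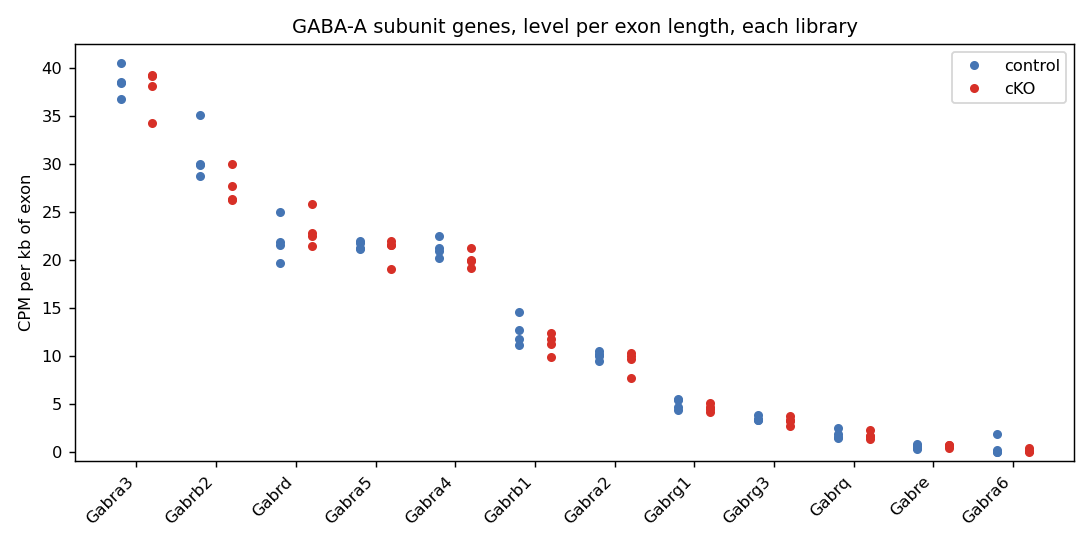
Levels of 12 GABA-A subunit genes in CPM per kb of exon (y axis), ordered by their mean (x axis), with 1 point per library, control in blue and cKO in red. Blue and red points overlap for every gene shown, from Gabra3 at 38.5 and 37.7 CPM per kb to Gabra6 near 0.

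Of the summed level per kb of the 5 alpha genes measured here, Gabra3 made up 42.0% ± 0.947 in control and 42.7% ± 1.15 in cKO brain. Gabra5 made up 23.5% ± 0.970 and 23.8% ± 0.800, Gabra4 23.1% ± 0.691 and 22.7% ± 0.921, and Gabra2 10.9% ± 0.279 and 10.6% ± 1.21. Each of these differences was smaller than the larger of the 2 SDs, and the groups overlapped for all 5 genes. Gabra2 had its lowest share, 8.90%, in cKO replicate 1. For the beta genes, Gabrb2 held 71.2% ± 0.900 of the summed level of Gabrb1 and Gabrb2 in control and 71.0% ± 1.21 in cKO brain. Over all 12 GABA-A genes measured, Gabrb2 made up 18.4% ± 0.937 of the summed level in control and 17.2% ± 0.546 in cKO brain, and Gabrd 13.1% ± 1.32 and 14.5% ± 1.29. Both differences were larger than the larger SD, and were not tested. The groups overlapped for both genes, and the highest Gabrd share, 16.4%, was that of cKO replicate 1.

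The alpha genes tested had log2 fold changes of -0.09 (Gabra2), -0.03 (Gabra3), -0.08 (Gabra4) and -0.03 (Gabra5), and none passed the test. Gabra4 was at 136.4, 127.3, 129.1 and 122.6 CPM in control replicates 1 to 4 and at 116.2, 120.5, 121.5 and 129.0 CPM in cKO replicates 1 to 4. Its lowest library was cKO replicate 1, and cKO replicate 4 lay among the controls. Its difference of -0.08 (log2, SE 0.058, 95% interval -0.20 to 0.04) had an edgeR adjusted p of 0.889 and an unadjusted p of 0.182. Leaving out cKO replicate 1 gave -0.06, and GC-content offsets gave -0.04. For Gabra2 the estimate went from -0.09 to -0.02 without cKO replicate 1.

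Gabra6 encodes an alpha subunit that marks granule cells of the cerebellum, and its reads were nearly absent. It had 0, 71, 7 and 0 reads in control replicates 1 to 4 and 0, 2, 3 and 17 reads in cKO replicates 1 to 4. In CPM this was 4.52 in control replicate 2 and 0.924 in cKO replicate 4, and at most 0.373 elsewhere. In the 3 libraries with 0 reads, a count of 0 allows up to 0.183 CPM (control replicate 1), 0.150 CPM (control replicate 4) and 0.217 CPM (cKO replicate 1), for counting error only. The groups overlap, and the spread lies between single libraries of the same group.

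The granule cell markers Cbln3 and Fat2 were highest in the same library as Gabra6, and the part of cerebellar RNA in its values was not tested. Cbln3, a secreted partner of cerebellin in granule cells, stood at 0.796, 13.2, 1.28 and 0.753 CPM in control replicates 1 to 4 and at 0.507, 0.807, 0.653 and 3.91 CPM in cKO replicates 1 to 4. Fat2, a protocadherin of granule cells, stood at 0.735, 6.31, 2.02 and 0.552 CPM in control and at 1.52, 1.01, 1.56 and 1.85 CPM in cKO brain. Control replicate 2 was the highest of the 8 for all 3 genes, and cKO replicate 4 was second for Gabra6 and Cbln3. Summed over 8 granule cell markers, which include genes that other brain regions also express, the level was 203 to 251 CPM in control and 185 to 211 CPM in cKO libraries. Control replicate 2 held the highest sum. The sum in cKO replicate 4, 206 CPM, lay below that of cKO replicate 3 (211 CPM) and control replicate 1 (213 CPM). Cbln3 and Fat2 are on this list and were picked after their values were seen.

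**Figure D4:**
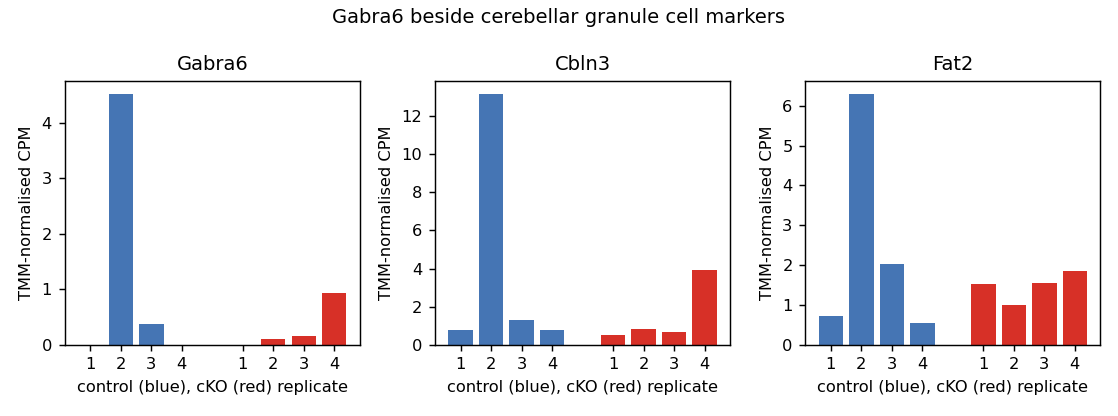
TMM-normalised CPM (y axis, starting at 0) of Gabra6, Cbln3 and Fat2 in each library (x axis, replicate number), controls in blue and cKO in red. Control replicate 2 is highest in all 3 panels, at 4.52, 13.2 and 6.31 CPM.

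Gabrb2 and Gabrb1 encode beta subunits, which carry part of the GABA binding site. Gabrb2 (ENSMUSG00000007653, chromosome 11) was at 222.7, 190.4, 189.7 and 182.5 CPM in control replicates 1 to 4 and at 166.6, 167.5, 175.9 and 190.4 CPM in cKO replicates 1 to 4. Control replicate 1 stood above the rest, and cKO replicate 4 reached the middle of the controls, so the groups overlapped. The log2 fold change was -0.16 (SE 0.067, 95% interval -0.30 to -0.03), a difference of -10.8%, with an edgeR adjusted p of 0.889 and an unadjusted p of 0.0230. Over the other settings the adjusted p ran from 0.679 to 1. The estimate was -0.15 without cKO replicate 1, -0.14 with GC-content offsets and -0.10 without control replicate 1. The unadjusted p was 0.132 without control replicate 1 and 0.0699 without cKO replicate 2, so that 0 members then reached 0.05; without control replicate 4 or without cKO replicate 4 there were 3, and without cKO replicate 3 there were 2.

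Gabrb1 (ENSMUSG00000029212, chromosome 5) was at 201.1, 162.5, 175.2 and 153.8 CPM in control replicates 1 to 4 and at 136.0, 154.8, 162.9 and 171.1 CPM in cKO replicates 1 to 4. Again control replicate 1 was the highest and cKO replicate 1 the lowest of the 8, and the other 6 were intermixed. The log2 fold change was -0.15 (SE 0.080, 95% interval -0.32 to 0.02; edgeR adjusted p 0.889, unadjusted p 0.0826). It was -0.09 without cKO replicate 1 and -0.0065 without replicate 1 of both groups. Leaving out the highest control and the lowest cKO library raises the estimate by construction. The within-library ratio of Gabrb1 to Gabrb2 reads, which library scaling cannot alter, was 0.881 ± 0.0387 in control and 0.891 ± 0.0517 in cKO brain, a log2 difference of 0.02 (two-sided exact permutation p 0.857 over 70 assignments; 0.857 adjusted over 3 ratios). The difference was smaller than the spread of the libraries.

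**Figure D5:**
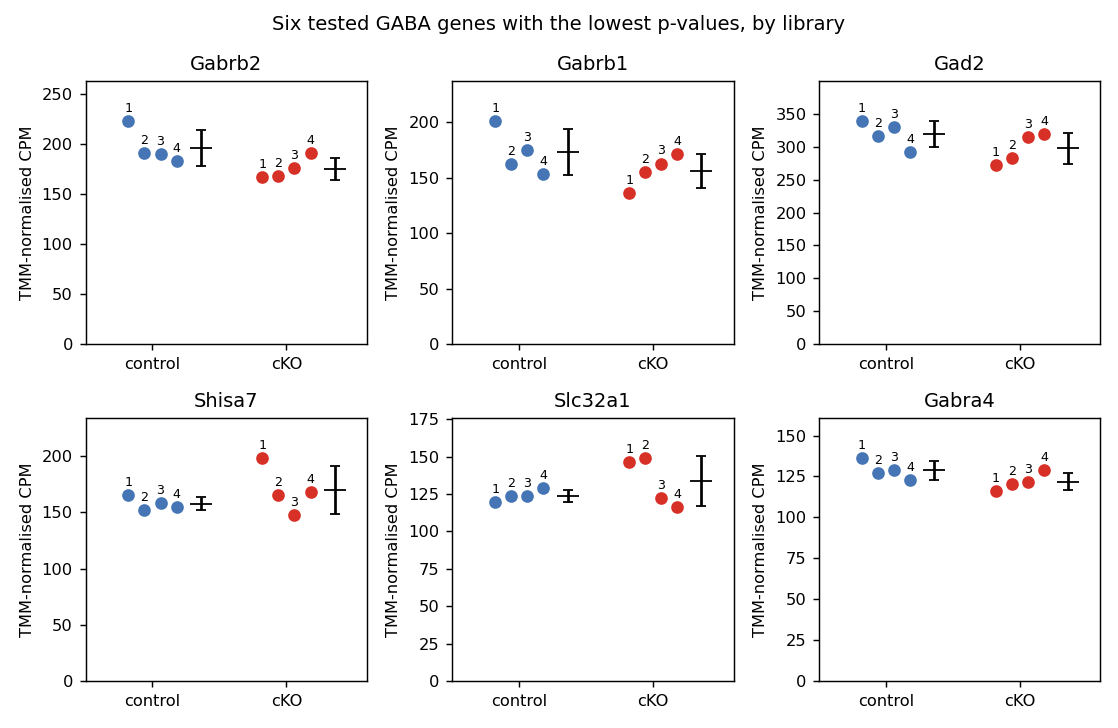
TMM-normalised CPM (y axis, starting at 0) by group (x axis) of Gabrb2, Gabrb1, Gad2, Shisa7, Slc32a1 and Gabra4, with 1 point per library labelled by replicate number and the mean ± SD of 4 libraries as a black bar. Control and cKO points overlap in all 6 panels, and cKO replicate 1 is the lowest for Gabrb2, Gabrb1, Gad2 and Gabra4 and the highest for Shisa7.

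Gabrb1 lies with Gabra4, Gabra2 and Gabrg1 in 1 cluster on chromosome 5. The 4 clustered genes had log2 fold changes of -0.15, -0.08, -0.09 and -0.12 in that order, all with an edgeR adjusted p from 0.889 to 0.892. Without replicate 1 of both groups they were -0.0065, -0.03, 0.01 and -0.04. That step removes the lowest library of all 4 genes, and the highest of Gabrb1, Gabra4 and Gabra2. It therefore raises their estimates by construction. Gabra4 and Gabrb1 start head to head and overlap in the GENCODE M21 annotation, and as the strand setting of the counting is not given, reads of the shared stretch cannot be told apart. Of the gamma genes, Gabrg1 ranged from 33.8 to 42.8 CPM in control and from 32.6 to 39.6 CPM in cKO brain, and Gabrg3 from 38.9 to 45.3 and from 32.1 to 43.8 CPM. Gabrg3 stood at -0.09 (SE 0.087), or -0.03 without cKO replicate 1.

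Gabrd, the delta subunit gene of tonic inhibition, had a positive estimate where the alpha4 subunit gene that often pairs with it had a negative one, and neither passed the test. Its level ran from 56.5 to 71.8 CPM in control and from 61.6 to 74.2 CPM in cKO libraries. The log2 fold change was 0.07 (SE 0.076, 95% interval -0.09 to 0.23; edgeR adjusted p 0.911), with 0.01 left without cKO replicate 1, its highest library. Gabre was at 1.34 to 3.55 CPM in control and 1.74 to 3.08 CPM in cKO libraries. Gabrq was at 7.45 to 13.2 and 7.32 to 11.8 CPM, and its estimate of -0.13 (SE 0.17) went to -0.28 without cKO replicate 1.

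The GABA-B subunit genes had the highest levels per kb of the receptor genes measured, with Gabbr1 at 109.8 ± 3.16 and Gabbr2 at 58.5 ± 4.84 CPM per kb in control brain, and fold changes close to 0. Gabbr1, which encodes the subunit that binds GABA, averaged 852 ± 24.6 CPM over the controls and 863 ± 37.2 CPM over the cKO libraries. Gabbr2, which encodes the subunit that couples to the G protein, stood at 391 ± 32.4 and 388 ± 33.3 CPM. Their log2 fold changes were 0.02 (95% interval -0.09 to 0.13) and -0.01 (95% interval -0.15 to 0.13), with edgeR adjusted p of 0.966 and 0.985. Each interval lay within a 1.25-fold difference in either direction, which rests on the spread of these libraries alone. The ratio of Gabbr1 to Gabbr2 reads was 2.19 ± 0.126 in control and 2.23 ± 0.146 in cKO libraries, a log2 difference of 0.03 (two-sided exact permutation p 0.571, 0.857 adjusted over 3 ratios).

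GABA is made from glutamate by the decarboxylases encoded by Gad1 and Gad2, of which the Gad1 product is spread through the cell and the Gad2 product sits at nerve endings. Gad2 (ENSMUSG00000026787, chromosome 2) was at 338.8, 316.0, 330.2 and 292.2 CPM in control replicates 1 to 4 and at 272.9, 282.5, 314.5 and 319.4 CPM in cKO replicates 1 to 4. The lowest control library lay below 2 of the cKO libraries. Its log2 fold change was -0.10 (SE 0.064, 95% interval -0.24 to 0.03; edgeR adjusted p 0.889, unadjusted p 0.125). Leaving out cKO replicate 1 gave -0.07, and GC-content offsets gave -0.08. Gad1 was at 449.9 to 500.4 CPM in control and 441.0 to 478.0 CPM in cKO brain. The estimate for Gad1 was -0.05 on the log2 scale (SE 0.055, 95% interval -0.16 to 0.07; edgeR adjusted p 0.914). The ratio of Gad1 to Gad2 reads was 1.51 ± 0.141 and 1.57 ± 0.104, a log2 difference of 0.06 (two-sided exact permutation p 0.429, 0.857 adjusted over 3 ratios). The smallest p this test can give with 4 against 4 is 0.0286.

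Because PKA phosphorylates the transcription factor CREB, the promoters of the group were searched for its response element, on both strands of the 250 bases before each RefSeq gene start (GRCm38.p6). Of the 25 genes, 23 had an entry. The full element TGACGTCA was in 0 of the 23, and in 1.77% of the 27025 genes with a promoter. Its core TGACG, which is part of the full element, was in 2 of the 23 (8.70%), beside 19.8% of all genes. Those 2 matches are shown with 12 bases on either side, with the core or its reverse complement in capitals.
Gad2, chr2:22622282-22622310, plus strand: ccatttcccttcCGTCActctctcatctc
Iqsec3, chr6:121473694-121473722, minus strand: cctgtgtggcggTGACGcgcaggcgacgg
The match in Gad2 begins 33 bases before its RefSeq start and that in Iqsec3 32 bases before, and neither gene passed the edgeR test. A match is only a run of letters, and the lack of one elsewhere says nothing of CREB.

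None of the loading, uptake and breakdown genes passed the test. Slc32a1 (ENSMUSG00000037771, chromosome 2), the vesicular transporter that fills synaptic vesicles with GABA and glycine, was at 119.4, 123.4, 123.4 and 129.2 CPM in control replicates 1 to 4 and at 146.2, 149.1, 122.5 and 116.0 CPM in cKO replicates 1 to 4. The cKO libraries split, with replicates 1 and 2 above all controls and replicate 4 below them. Its estimate of 0.11 (log2, SE 0.074, 95% interval -0.05 to 0.26; edgeR adjusted p 0.889, unadjusted p 0.162) was 0.06 without cKO replicate 1. With GC-content offsets it was 0.0071, and the GC content of this gene, 61.9%, is the highest of the group. Slc32a1 and Gad1 each overlap an antisense gene in GENCODE M21, whose reads cannot be told apart from theirs without the strand setting.

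Slc6a11 encodes the GABA transporter GAT3 of astrocytes. It was at 304 to 359 CPM in control and 303 to 358 CPM in cKO libraries, with a log2 fold change of 0.0099 (95% interval -0.12 to 0.14; edgeR adjusted p 0.985), which turned to -0.04 without cKO replicate 1 and to -0.03 with GC-content offsets. Abat, the mitochondrial transaminase that degrades GABA, was at 388 ± 21.9 and 379 ± 11.8 CPM, a log2 fold change of -0.04 (95% interval -0.15 to 0.08; edgeR adjusted p 0.928). Beside them, the summed level of 10 astrocyte markers was 4038 to 4767 CPM in control and 3635 to 4249 CPM in cKO libraries. The difference of means was -6.37%. An unadjusted edgeR p under 0.05 was reached by 2 of the 10 that were higher in cKO brain and by 1 that was lower. Among all genes tested, 2.87% were higher and 1.91% lower at that p. Only 1 of the 10 passed the test, Aqp4, the water channel of astrocyte endfeet, which rose (log2 fold change 0.46, edgeR adjusted p 0.0104). Its call was lost in 5 of the 8 fits with 1 library left out (control replicate 2 or 4, or cKO replicate 2, 3 or 4), with an adjusted p of up to 0.159. The part of astrocyte RNA in the values of Slc6a11 and Abat was not tested.

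Gphn encodes gephyrin, which anchors glycine and GABA-A receptors under the inhibitory synapse. It stood at 74.7, 75.4, 74.5 and 73.5 CPM in control replicates 1 to 4 and at 73.9, 73.2, 73.0 and 73.1 CPM in cKO replicates 1 to 4, a log2 fold change of -0.02 (95% interval -0.14 to 0.09; edgeR adjusted p 0.958). Its values were the most even of the tested members over the 8 libraries, and it was singled out for them after they were seen. Slitrk3, a postsynaptic adhesion protein of inhibitory synapses, had 0.02, Iqsec3, a gephyrin-binding exchange factor, 0.06, and Clptm1, which limits the forward traffic of GABA-A receptors, 0.04. Lhfpl4, a transmembrane partner needed to gather GABA-A receptors at synapses, had -0.04, and edgeR adjusted p for these 4 ran from 0.911 to 0.973.

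Shisa7 (ENSMUSG00000053550, chromosome 7), an auxiliary subunit of GABA-A receptors, had the lowest p among the partners. It was at 165.1, 152.0, 158.6 and 155.1 CPM in control replicates 1 to 4 and at 198.5, 165.6, 147.5 and 168.5 CPM in cKO replicates 1 to 4. The highest and the lowest library were both cKO libraries, replicates 1 and 3. The log2 fold change was 0.11 (SE 0.072, 95% interval -0.04 to 0.26; edgeR adjusted p 0.889, unadjusted p 0.155). Leaving out cKO replicate 1 gave 0.02, and GC-content offsets gave 0.05. Clptm1 and Iqsec3 also had their highest value in cKO replicate 1, and without it their estimates were -0.0071 and 0.0020.

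Of 34 other genes of the pathway, written as a list from general knowledge (rho and pi subunits, further transporters and enzymes, GABA-B auxiliary subunits and effector channels, chloride transporters, and trafficking partners), 33 were matched and 30 tested. Earlier results of these data were known when this list was made, so counts from it are a description. None passed the test (0 of 30, edgeR adjusted p between 0.889 and 0.997). An unadjusted edgeR p under 0.05 was reached by 3 of the 30 (10%), all lower in cKO brain. Among all genes tested, 4.78% reached it in either direction and 1.91% did so lower in cKO brain. The median log2 fold change of the 30 was -0.05. Plcl1, a GABA-A receptor-binding protein related to phospholipase C, stood at -0.21 (SE 0.089), Akap5, an anchoring protein that brings PKA to GABA-A beta subunits, at -0.18 (SE 0.080), Trak2, a kinesin adaptor, at -0.12 (SE 0.056) and Plcl2, a relative of Plcl1, at -0.13 (SE 0.067), each with an edgeR adjusted p of 0.889. Akap5 was at 159.2, 143.0, 129.8 and 123.3 CPM in control replicates 1 to 4 and at 107.5, 129.7, 118.5 and 135.0 CPM in cKO replicates 1 to 4, so the groups overlapped. The count at an unadjusted p under 0.05 was 0 of the 30 without control replicate 1, and 0 to 5 over the 8 fits with 1 library left out. Without cKO replicate 1 it was 1, Plcl2, which is none of the 3, and with GC-content offsets it was 2. The estimate for Akap5 was -0.10 without control replicate 1 and -0.05 without replicate 1 of both groups. These are its highest and lowest libraries, so leaving them out raises the estimate by construction.

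Markers of the cells that use these genes were examined beside them. The summed level of 18 interneuron markers was 912 to 958 CPM in control and 881 to 943 CPM in cKO libraries, with 0 of the 18 at 0 reads in any library. An unadjusted edgeR p under 0.05 was reached by 2 of the 18, both lower. Over all genes tested, 4.78% reached it in either direction and 1.91% did so lower in cKO brain. Nxph1, a neurexin ligand made by interneurons, was the 1 marker of the 18 that passed the test with all 8 libraries. The lists were made with earlier results known, so its passing is no test of interneuron markers. Nxph1 fell by 24.7% (log2 fold change -0.41, edgeR adjusted p 0.0333). That call was lost in 7 of the 8 fits with 1 library left out, all but the one without cKO replicate 1. Over those 8 fits the edgeR adjusted p of Nxph1 ran from 0.0418 to 0.238. It was lost as well with library totals alone, the replicate block, limma voom and replicate 1 of both groups left out. The lower ends of the 95% intervals of Gad1, Gad2 and Slc32a1 were -10.5%, -15.1% and -3.19%, and their difference from Nxph1 was not tested. Excitatory neuron markers (11 genes) summed to 4509 to 5214 CPM in control and 4504 to 5000 CPM in cKO libraries, and 8 markers of striatal projection neurons, which release GABA, to 1035 to 1150 and 979 to 1134 CPM.

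Thalamic markers were the 1 list of the 12 whose summed level did not overlap between groups. Over 8 genes they summed to 271 to 299 CPM in control and 244 to 261 CPM in cKO libraries. The difference of means was -11.3%, and 0 of the 8 passed the edgeR test. An unadjusted edgeR p under 0.05 was reached by 4, all lower. Over all genes tested, 4.78% reached it in either direction and 1.91% did so lower in cKO brain. The thalamic list was made with earlier results of these data known, so neither its count nor its sum is a test of thalamic markers. Single genes whose groups did not overlap were 2.96% of all tested, which is no reference for a sum of genes. Such a sum leans toward its most abundant genes, and the share of thalamic cells in it was not tested. Thalamic neurons are known for beta2, alpha4 and delta subunits, of which Gabrb2 and Gabra4 had negative estimates and Gabrd a positive one, and the part of thalamic RNA in these values was not tested. The remaining lists overlapped between groups. Purkinje cell markers summed to 768 to 938 and 728 to 803 CPM, hippocampal markers to 218 to 248 and 207 to 253, hypothalamic markers to 39.5 to 51.7 and 35.5 to 57.5, oligodendrocyte markers to 5140 to 6173 and 4908 to 5663, microglial markers to 262 to 299 and 268 to 293, and endothelial markers to 224 to 247 and 218 to 234 CPM. No marker on any of the 12 lists was at 0 reads in any library.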

How the data were processed

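Brain RNA of 4 control and 4 cKO libraries was compared, with groups and replicate numbers from the titles. The authors deposited 1 file per library with a whole-number read count for each Ensembl gene; HISAT2 and GRCm39 were used per the submitters' processing notes, and the counting program, annotation, strand setting and tool versions are not given by the sources used here. In each file the last 5 entries name no gene and were left out of library sizes and tests, which leaves 63.8% to 79.7% of the listed reads. Symbols matched 51880 of 57186 genes; exon lengths and GC content came from GENCODE M21 (GRCm38), so no gene coordinates of the counted build are given.

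Counts were filtered with filterByExpr, scaled by TMM and tested with edgeR 4.0.16 in R 4.3.3 (robust quasi-likelihood fit on group alone), with p-values adjusted by Benjamini-Hochberg over 16766 genes at 0.05. On counts simulated for this comparison (16569 genes run), it called 91 of 100 genes changed 1.5-fold and 100 of 100 changed 2-fold, with 16 false calls. The changed genes were drawn only from those above a minimum mean CPM, which Gabre does not reach, so recovery of lower genes is not given. Alternatives were DESeq2 1.42.0, its size factors in edgeR, library totals, 2 other filters, limma 3.58.1 voom, a replicate block, GC-content offsets (loess, span 0.5), and libraries left out. The members and lists were chosen with earlier results of these data known. All members were named; the 6 with the lowest p were given by library, with Akap11 and the 4 other pathway genes of lowest p. Cbln3, Fat2, Nxph1 and Aqp4, and the by-library values of Akap5, were chosen after their values were seen.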

Additional observations from a re-analysis of the deposited data

Results flagged for a closer look

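Over the 30 named genes and 3 ratios, 66 groups of 4 libraries were examined for a library far from the other 3 of its group by Dixon's criterion, which chance meets in about 1 of 20 groups, and 5 were found. Gabra6 was found in both groups, at 4.52 CPM in control replicate 2, with the other controls from 0 to 0.373 CPM, and at 0.924 CPM in cKO replicate 4, with the other cKO libraries from 0 to 0.151 CPM. Gabra5, whose subunit is typical of hippocampal pyramidal cells, stood at 56.6 CPM in cKO replicate 2 against 64.1 to 65.1 CPM in the other cKO libraries. Slitrk3 stood at 78.6 CPM in control replicate 1, the other controls lying from 69.9 to 70.6 CPM. Plcl2 was at 83.4 CPM in the same library, against 72.0 to 72.3 CPM in the other controls. Without control replicate 1, the log2 fold change of Plcl2 moved from -0.13 to -0.07.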

How the results depend on the processing

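The number of GABA genes past the adjusted threshold was 0 in all 17 alternatives, and the lowest adjusted p of a tested member in any of them was 0.679. Their median log2 fold change ran from -0.05 to -0.01. The number at an unadjusted p under 0.05 was 2 with no low-count filter and 0 without replicate 1 of both groups, and 0 to 3 with 1 library left out. Genes past the threshold among all tested numbered 7 with no low-count filter, 2 with the replicate block, 2 without replicate 1 of both groups, 2 with limma voom and 0 to 3 with 1 library left out. Of the 24 tested members, 13 kept their sign in every alternative. With GC-content offsets the sign turned for Gabra3 (0.0016), Gabbr1 (-0.0050) and Slc6a11 (-0.0255). Without replicate 1 of both groups it turned for Gabra2 (0.0103), Gabrg3 (0.0300), Slc6a11 (-0.0418) and Clptm1 (-0.00033). With 1 library left out the sign turned for Gabbr2 (-0.0746 to 0.0520), Gabre (-0.0677 to 0.36), Slc6a11 (-0.0370 to 0.0547), Slitrk3 (-0.0042 to 0.0616), Gabrq (-0.28 to 0.0490), Clptm1 (-0.0071 to 0.0794), Gabra3 (-0.0602 to 0.0115), Gabra5 (-0.0587 to 0.0107) and Gabbr1 (-0.0065 to 0.0404). So did the log2 ratio differences of Gabbr1 to Gabbr2 (-0.0092 to 0.0768) and Gabrb1 to Gabrb2 (-0.0043 to 0.0582). The cause was not tested. Same-numbered libraries did not deviate together (Pearson r of 0.0052 to 0.0487 over genes), so the replicate block rests on numbers alone; it left the count of GABA genes at an unadjusted p under 0.05 at 1. Akap11 missed the threshold without control replicate 2 (-0.52) and without cKO replicate 2 (-0.47). Nxph1 missed it in 11 of the 17 alternatives and Aqp4 in 5. Gabra6 could be fitted only with no low-count filter (-1.93, SE 1.78) and by DESeq2 (-2.06, SE 2.30). With 3 libraries in a group the exact test of a ratio cannot go below 0.0571. A change confined to some cells is diluted in counts of whole tissue, and its size cannot be read from them.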
